A study of Mus musculus with 2 samples.

Results

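Camk2a, Camk2b and Camk2g encode the alpha, beta and gamma subunits of calcium/calmodulin-dependent protein kinase II (CaM kinase II). Of the 64820 reads deposited for the anti-Rbfox1 precipitate, 588 (0.907%, 95% interval 0.836 to 0.983) fell in these 3 genes. The genes were proposed as a family, with earlier results of these data known. A read counted for a gene when it lay wholly inside a fixed window of the mm9 genome and on the strand of that window, which was chromosome 18 from 61083000 to 61150000 on the plus strand for Camk2a, chromosome 11 from 5867000 to 5968500 on the minus strand for Camk2b, and chromosome 14 from 21552000 to 21615000 on the minus strand for Camk2g. The study precipitated Rbfox1 with anti-Rbfox1 antibodies from the cytoplasmic fraction of mouse forebrain neurons, cultured for 14 days in vitro and treated with 254 nm ultraviolet light. An anti-Flag precipitate of the same kind of fraction, with 569 reads, was the control, and there was 1 library per antibody. The labels name no strain, genotype or animal for either group. In this method, individual-nucleotide crosslinking and immunoprecipitation (iCLIP), the base just upstream of a read marks where the protein was joined to the RNA. That base is called the crosslink here.

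CaM kinase II is a large ring of subunits that calcium-bound calmodulin switches on and that can keep itself active by phosphorylating its own subunits. In forebrain neurons it is among the most abundant proteins of excitatory synapses and is known for its part in synaptic strengthening and memory. The alpha subunit is the main form of forebrain neurons, and its mRNA is known to travel into dendrites. The beta subunit binds actin filaments, and the gamma subunit is known to carry calmodulin toward the nucleus. Rbfox1 binds RNA in neurons and is best known for regulating splicing, with forms that stay in the cytoplasm and bind the 3′ untranslated regions (UTRs) of mRNAs. It recognises the letters UGCAUG, written TGCATG in the DNA alphabet, and more weakly the shorter GCATG.

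The annotated 3′ UTR of each gene held TGCATG, read on the transcript strand only, in the longest complete protein-coding transcript of GENCODE release M21. That annotation is built on GRCm38, another assembly than that of the reads, so the letters below were not placed on the crosslinks and no site is said to be bound. Camk2a has 1 TGCATG there, at base 1593 after the stop codon, which is not shown. The sites of Camk2b and Camk2g are shown because TGCATG is the sequence Rbfox proteins recognise and because they let the surrounding bases be compared. Each is 26 bases, 5′ to 3′, in the annotation's DNA letters, with TGCATG in capitals, and the number after the gene is the place of its first capital counted from 1 after the stop codon.
Camk2b at 429: ctccctcccaTGCATGggccccacgt
Camk2b at 1940: acaattctttTGCATGaccctctaaa
Camk2g at 150: tgcacgccccTGCATGcagccctccc
Camk2g at 1234: ctggacaatcTGCATGggcatcaccc
Camk2g at 1257: ccccctcgccTGCATGtacccacaaa
Camk2g at 1591: caagcacttgTGCATGcctcagaccc
Camk2g at 1874: gcagaactttTGCATGatgacataga

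Camk2g thus had 5 copies in a 3′ UTR of 1990 nt, Camk2b 2 copies in 2184 nt and Camk2a 1 copy in 3372 nt, which is 2.51, 0.916 and 0.297 copies per kb. Over all 21517 annotated 3′ UTRs examined the value was 0.359 per kb, and 31.0% held at least 1 copy. Among 3′ UTRs within 10% of the same length, at least 1 copy was present in 51.1% for Camk2g, 53.7% for Camk2b and 69.6% for Camk2a. As many as 5 copies were present in 6 of 1359 of the UTRs as long as that of Camk2g (0.442%). At least 2 copies were present in 19.8% of those as long as that of Camk2b. The shorter GCATG, which includes every TGCATG, occurred 7 times in Camk2g, 4 times in Camk2b and 5 times in Camk2a. It occurred at least once in 85.4% to 95.6% of UTRs of like length. At least as many GCATG copies were present in 0.957% of UTRs of like length for Camk2g, 17.7% for Camk2b and 24.2% for Camk2a. The coding sequence held 1 TGCATG in Camk2a and 0 in the other genes.

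The first question was how many of the anti-Rbfox1 reads fell in each gene. Camk2a held 336 anti-Rbfox1 reads at 186 distinct crosslink positions, 0.518% of the library (95% interval 0.465 to 0.577). Camk2b held 223 reads at 140 positions, 0.344% (0.300 to 0.392). Camk2g held 29 reads at 26 positions, 0.0447% (0.0300 to 0.0642). The order was therefore Camk2a, Camk2b, Camk2g, with intervals that did not overlap. These are exact Clopper-Pearson intervals that cover counting error only, since reads of an amplified library are not independent molecules, and without replicates no difference has a replicate check.

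The same order held per kb of window and per kb of the longest annotated mRNA, but its size depended on the length. Reads per kb of 3′ UTR were not calculated, so the order on that length is not given. Per kb of window, Camk2a had 5.01 reads, Camk2b 2.20 and Camk2g 0.460. On that scale Camk2a stood 2.28-fold above Camk2b (95% interval 1.92 to 2.72) and 10.9-fold above Camk2g (7.45 to 16.5), and Camk2b stood 4.77-fold above Camk2g (3.23 to 7.29). Per kb of the longest annotated mRNA (4970, 4023 and 3703 nt), the values were 67.6, 55.4 and 7.83 reads. The ratio of Camk2a to Camk2b was then 1.22 (1.03 to 1.45), that of Camk2a to Camk2g 8.63 (5.90 to 13.1) and that of Camk2b to Camk2g 7.08 (4.79 to 10.8). The order by reads per kb of mRNA was the reverse of the order by TGCATG copies per kb of 3′ UTR across these 3 genes. These orders rest on unlike lengths, the whole mRNA for reads and the 3′ UTR for copies. No relation between reads and copies follows from 3 genes. The level of each mRNA in the culture was not measured in this series, so a difference in binding per molecule and a difference in the amount of mRNA cannot be told apart.

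**Figure D1:**
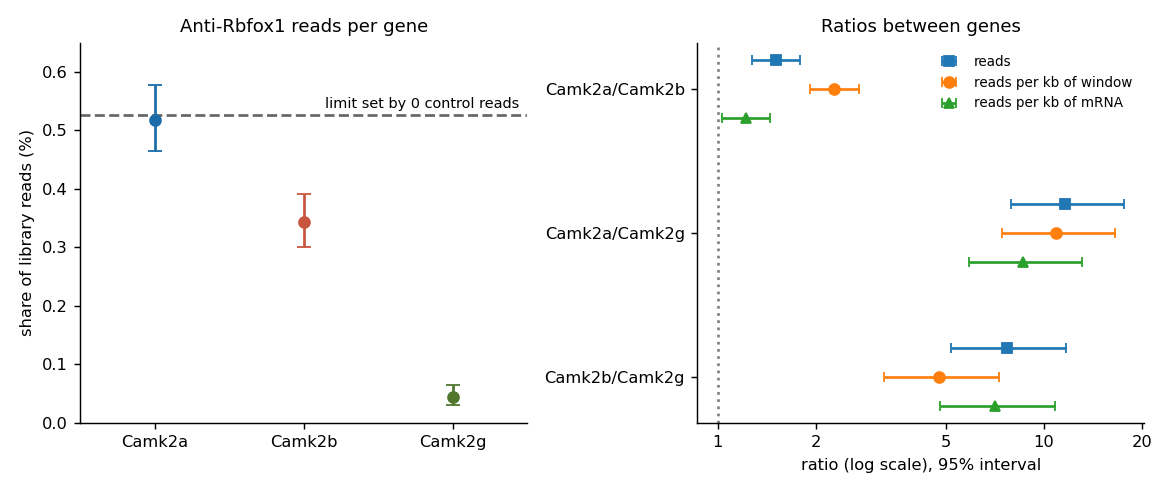
Left, the share of anti-Rbfox1 library reads (%) in each gene window with its exact 95% interval, and a dashed line at the share that 0 control reads still allow (0.527%). Right, the ratio of anti-Rbfox1 reads between pairs of genes on a log axis with exact 95% intervals, as reads, per kb of window and per kb of the longest annotated mRNA; Camk2g lies far below both others on all 3 scales, while the Camk2a to Camk2b ratio ranges from 1.22 to 2.28.

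The anti-Flag control held 0 reads in each of the 3 windows, on either strand. A count of 0 of 569 allows a share of up to 0.527% if 3 counts are taken as the limit, and of up to 0.646% by the exact interval. The share of Camk2a in the anti-Rbfox1 library, 0.518%, lay below that limit, as did those of Camk2b and Camk2g. At equal shares 2.95 control reads would have been found in Camk2a, 1.96 in Camk2b and 0.255 in Camk2g, so an excess over the control was not detectable at this depth for any single gene. For the 3 genes summed, 5.16 control reads would have been found at an equal share and 0 were. Their summed share of 0.907% lay above the limit, but the genes were proposed with their counts known, so the sum is a description. The nearest control read on the same chromosome and strand lay 70.8 kb outside the Camk2g window, 16900 kb outside that of Camk2a and 17600 kb outside that of Camk2b. The strand opposite to each gene held 0 anti-Rbfox1 reads.

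The next question was where along the genes the crosslinks lay. Crosslinks within 20 nt of each other on a strand were joined into clusters. In all 3 genes nearly all reads lay at the downstream end of the window. The last 10% of the window in the direction of transcription held 334 of 336 reads of Camk2a (99.4%, 95% interval 97.9 to 99.9), 215 of 223 of Camk2b (96.4%, 93.1 to 98.4) and 25 of 29 of Camk2g (86.2%, 68.3 to 96.1). These reads formed 8 clusters in Camk2a, 7 in Camk2b and 3 in Camk2g. Outside the last 10% there were 7 clusters, 1 in Camk2a, 4 in Camk2b and 2 in Camk2g, and each of them held exactly 2 reads. No anti-Rbfox1 cluster in the deposited list was smaller. The crosslinked bases of the last 10% spanned 2561 nt in Camk2a, 2710 nt in Camk2b and 1763 nt in Camk2g. The most downstream crosslink was 2375, 2689 and 2152 nt from the edge of the respective window. The windows, 67001, 101501 and 63001 nt long, exceed the lengths of these genes in GRCm38, which are 62535, 96719 and 59214 nt.

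**Figure D2:**
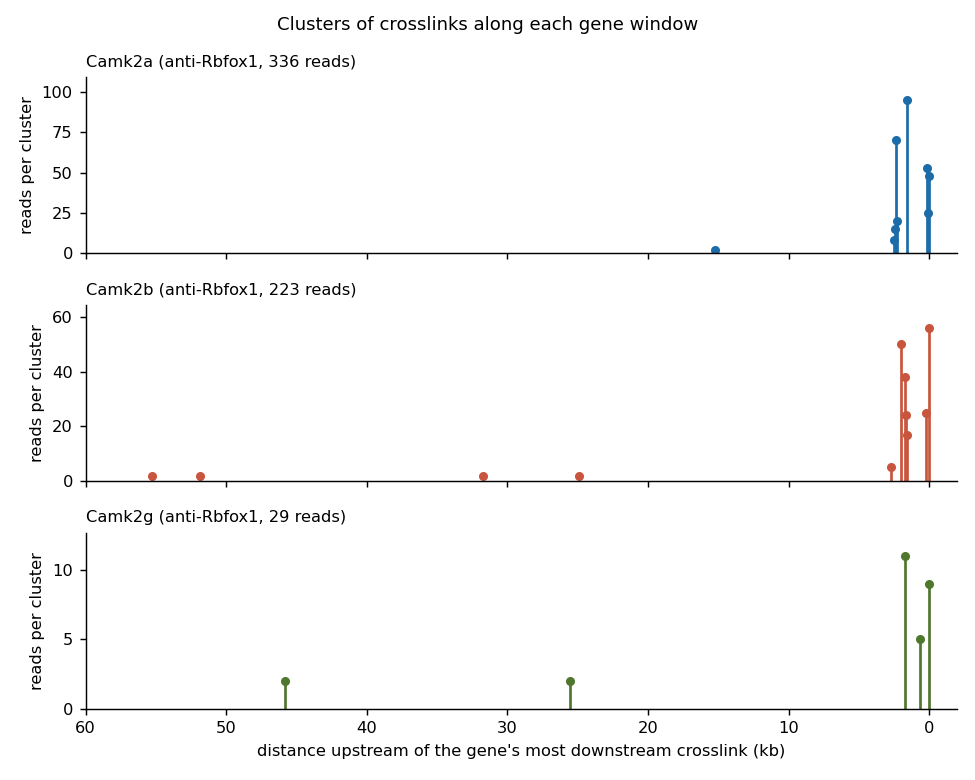
Reads per anti-Rbfox1 cluster (vertical lines with points) against the distance in kb upstream of the most downstream crosslink of Camk2a, Camk2b and Camk2g, with transcription running from left to right and a separate vertical scale per gene. The deep clusters stand within 3 kb of the right end in each gene, and the 7 clusters farther upstream hold 2 reads each.

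Whether the downstream clusters lie in 3′ UTRs was not analysed here, because no mm9 annotation was used. The lengths alone can be set side by side. In the block of file lines that held 17 of the 25 clusters (explained further on), the crosslinks spanned 2561 nt in Camk2a, 2077 nt in Camk2b and 1763 nt in Camk2g. The annotated 3′ UTRs named above were 3372, 2184 and 1990 nt long. The block leaves out the downstream Camk2b cluster of 5 reads from 5872347 to 5872397. With that cluster included, the downstream crosslinks of Camk2b spanned 2710 nt, more than its annotated 3′ UTR of 2184 nt. The spans of Camk2a and Camk2g were the same with all downstream clusters. In GRCm38 the next gene downstream of Camk2g is Ndst2, a heparan sulfate sulfotransferase gene on the same strand with a gap of 312 nt, so the reads nearest to the downstream edge of the Camk2g window may belong to either gene. The next protein-coding genes downstream of Camk2a and Camk2b, Slc6a7 and Ykt6, lie on the opposite strand. Mir7220 and Mir6982, a pair of microRNA genes, lie inside Camk2a on its strand.

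The third question was how deep the clusters were. A cluster of at least 10 reads is called deep here. Of all 10134 anti-Rbfox1 clusters, 12.3% were deep, 1.75% reached 50 reads and 48.9% held 2 reads. None held a single read, so the deposited list has no anti-Rbfox1 read without another within 20 nt. Whether lone reads were removed before deposit is not stated. Shares of the library, stretches without crosslinks and the empty opposite strands therefore describe the deposited reads only. Deep clusters numbered 7 of 9 in Camk2a, 6 of 11 in Camk2b and 1 of 5 in Camk2g, which is 14 of 25 in all (56.0%). At least 50 reads were reached by 3 clusters of Camk2a, 2 of Camk2b and 0 of Camk2g. Deep clusters held 326 of the 336 Camk2a reads (97.0%), 210 of the 223 Camk2b reads (94.2%) and 11 of the 29 Camk2g reads (37.9%). The genes were proposed with these depths in view, so the shares describe them and support nothing further.

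**Figure D3:**
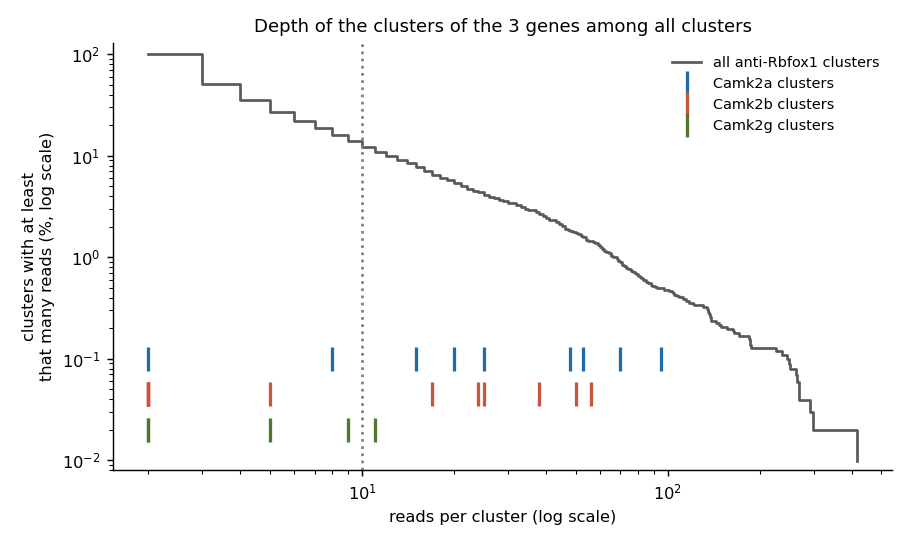
The grey line gives the share of all 10134 anti-Rbfox1 clusters (%, log axis) that hold at least the number of reads on the horizontal log axis, and the ticks below it mark the clusters of Camk2a, Camk2b and Camk2g, with equal read numbers drawn on top of each other and tick height without meaning. The dotted line marks 10 reads; 7 Camk2a, 6 Camk2b and 1 Camk2g clusters lie to its right.

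In Camk2a, the kinase's main forebrain subunit, the downstream crosslinks fell into an upstream and a downstream group. The nearest crosslinks of these groups lay 1359 nt apart, with none between. The upstream group spanned 1028 nt (chromosome 18, 61145066 to 61146093) and held 208 reads in 5 clusters, 61.9% of the gene. It ranked 35 by reads among the 7297 such stretches of the library, a stretch being clusters whose outer bases lie within 1000 nt of each other. The downstream group spanned 238 nt (61147410 to 61147647) and held 126 reads in 3 clusters, 37.5% of the gene, ranking 78. Of all stretches 8.63% had at least 3 clusters.

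The highest Camk2a cluster, from 61145940 to 61146093, held 95 reads at 59 positions and ranked 49 among all clusters by reads. It made up 28.3% of the gene's reads (95% interval 23.5 to 33.4). Its crosslinks were spread over 112 nt, and its most used position, 61146046, held 6 reads. No single base carried this cluster.

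The next Camk2a cluster, from 61145187 to 61145296, held 70 reads at 42 positions over 80 nt, with at most 5 reads at a base. In the downstream group, the cluster from 61147410 to 61147521 held 53 reads at 19 positions, 2.79 reads per position, the highest value among the deep clusters of the 3 genes. Its position 61147454 held 8 of them, the most at any base of the 3 genes. Some reads of this cluster share a 3′ end and have crosslinks at neighbouring bases. Whether they are near-copies was not tested.

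The cluster at the downstream end of Camk2a, from 61147583 to 61147647, held 48 reads at 26 positions. The next in order, from 61147510 to 61147569, held 25 reads at 16 positions and lay between the previous clusters. The remaining Camk2a clusters of the last 10% held 20, 15 and 8 reads. The 20-read cluster, from 61145316 to 61145407, had 7 reads at position 61145329, which is 35.0% of the cluster. Far upstream, a cluster of 2 reads lay from 61132367 to 61132397, 12697 nt before the next crosslink.

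Camk2b, the actin-binding subunit, also showed an upstream and a downstream group, here with nearest crosslinks 1368 nt apart and none between. The upstream group spanned 1137 nt (chromosome 11, 5871261 to 5872397) and held 134 reads in 5 clusters, 60.1% of the gene, ranking 72 among stretches. The downstream group spanned 260 nt (5869669 to 5869928) and held 81 reads in 2 clusters, 36.3%, ranking 143. The division of reads between the groups was thus close to that of Camk2a, 60.1% and 36.3% against 61.9% and 37.5%. The positions of the groups were not aligned between the genes, so nothing follows about their sequence.

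The highest Camk2b cluster was the most downstream one, from 5869669 to 5869762, with 56 reads at 36 positions over 75 nt and a rank of 143 among all clusters. It made up 25.1% of the gene's reads (95% interval 19.6 to 31.3). The next, at the other end of the deep clusters, lay from 5871691 to 5871764 and held 50 reads at 22 positions. Its position 5871756 held 7 reads, the most at a base in this gene. Its crosslinks spanned 43 nt, fewer than the 75 nt of the most downstream cluster.

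Between them a run of 3 clusters with gaps of 24 and 23 nt covered the bases from 5871261 to 5871461. They held 38, 24 and 17 reads in the direction of transcription, and in none of them did a base hold more than 3 reads. The remaining deep cluster, from 5869867 to 5869928, held 25 reads at 16 positions. A cluster of 5 reads from 5872347 to 5872397 lay 615 nt upstream of the deep clusters. The 4 clusters of 2 reads were scattered from 24920 to 55251 nt upstream of the most downstream crosslink, farther than the single one of Camk2a at 15257 nt.

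Camk2g, the gamma subunit, had 3 clusters in the last 10% of its window, of which 1 was deep. The highest, on chromosome 14 from 21555873 to 21555913, held 11 reads at 10 positions and ranked 1013. It made up 37.9% of the gene's reads (95% interval 20.7 to 57.7), an interval that includes the values of the other genes. The next, from 21554124 to 21554175 and closest to the downstream edge, held 9 reads at 9 positions. The middle one, from 21554772 to 21554835, held 5 reads at 3 positions. Another 2 clusters of 2 reads lay 25562 and 45846 nt upstream of the most downstream crosslink. With so few reads, the spacing of 1059 and 650 nt between the downstream clusters describes these reads only.

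**Figure D4:**
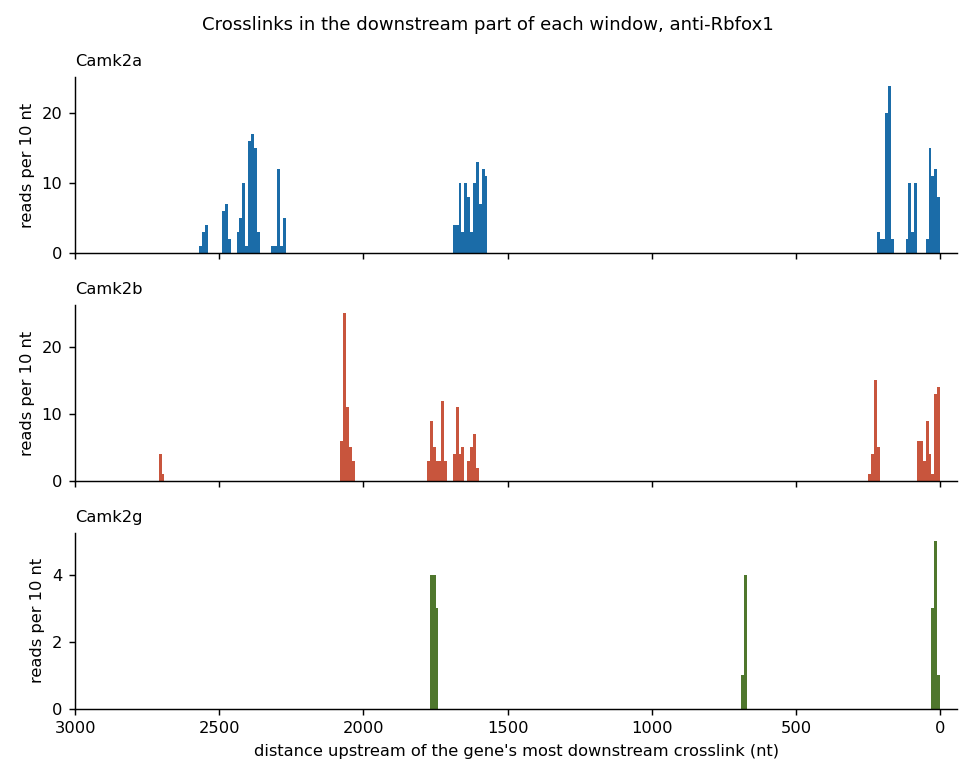
Anti-Rbfox1 reads per 10 nt of crosslink position against the distance in nt upstream of the most downstream crosslink, for the last 3000 nt of Camk2a, Camk2b and Camk2g, with a separate vertical scale per gene. Camk2a and Camk2b each show an upstream and a downstream group, whose nearest crosslinks lie 1359 and 1368 nt apart. Camk2g shows 3 small groups of 11, 5 and 9 reads.

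How reads were spread over bases differed between the genes, but these values also depend on the number of reads, only 29 in Camk2g. A single read was found at 109 of the 186 Camk2a positions (58.6%), 86 of 140 in Camk2b (61.4%) and 24 of 26 in Camk2g (92.3%), against 79.4% over all positions of the library. At least 5 reads were found at 12 of the 186 positions of Camk2a, 3 of 140 of Camk2b and 0 of 26 of Camk2g. The share over all 47896 positions of the library was 1.72%. Reads per position were 1.81 in Camk2a, 1.59 in Camk2b, 1.12 in Camk2g and 1.35 in the library. No 2 reads of a library shared start, end and strand, so identical copies were absent as deposited, and the number at a base is a count of different reads and not of all molecules.

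The lines of the anti-Rbfox1 file fall into 11 blocks, a new one starting wherever the order of chromosomes falls back. No source here says what a block stands for. The clusters of the 3 genes differed in depth and place between blocks. The fourth block held 17 of the 25 clusters and 569 of the 588 reads, among them 17 of the 18 clusters in the last 10% of a window and all 14 deep ones. Of all 4980 clusters in that block 22.0% were deep. The first block held the 7 clusters of 2 reads farther upstream. In that block 1.87% of clusters were deep and 77.1% held 2 reads, and no reads shared a leftmost base while up to 11 shared a rightmost base. In the fourth block up to 25 reads shared a leftmost base and up to 25 a rightmost base. The ninth block held the 5-read cluster of Camk2b. The 7 scattered clusters all lay in the first block and the deep ones all in the fourth, so differences in depth by place and by block cannot be told apart in these genes.

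The summed depth of the genes can also be read against the whole genome. When each strand was divided into tiles of 100 kb, 4796 tiles held at least 1 read, with a median of 4. At least as many reads as in Camk2a were found in 14 of these tiles (0.292%). At least as many as in Camk2b were found in 37 (0.771%), and as in Camk2g in 414 (8.63%). The tiles that hold the genes themselves were not left out. Tiles take no account of gene borders or lengths, and the windows of Camk2a and Camk2g are shorter than a tile.

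Reads of related genes can be hard to assign where the sequences are identical. Among stretches of 28 nt, the library's median read length, 7 of 4943 in the longest Camk2a transcript also occurred in a Camk2b or Camk2g transcript, 7 of 3996 in Camk2b and 4 of 3676 in Camk2g recurred in another member, and 0 of these lay in a 3′ UTR. Among stretches of 20 nt the counts were 33, 32 and 36, again with 0 in a 3′ UTR. Other genes and the rest of the genome were not compared, so whether the reads could be placed uniquely was not tested. The treatment of reads with several matches is not stated in the labels.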

How the data were processed

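The deposited files list aligned reads of 1 anti-Rbfox1 and 1 anti-Flag library, 1 read per line, with its ends, its strand and 1 more position. The submitters' processing notes name Bowtie and mm9. Versions, mismatch settings and filters were not stated. The extra position was the base before the read's 5′ end in 64820 of 64820 and 569 of 569 reads and was taken as the crosslink. Crosslinks within 20 nt were joined into clusters, and clusters within 1000 nt into stretches. Intervals are at 95%, exact Clopper-Pearson for shares and exact conditional for ratios. With 1 library per antibody no test between antibodies was made. The members and lists were chosen with earlier results of these data known. The clusters named were to be the 5 highest of each gene. Others were named after their values were seen. A list of other genes of the pathway, the check of marker genes and the placing of clusters on transcripts need an mm9 annotation and were not analysed here. Transcript lengths, neighbours and sequences came from GENCODE M21 (GRCm38), without coordinates. The steps were tested on simulated data. Python 3.11.15, numpy 2.4.6, pandas 2.3.3, scipy 1.17.1 and matplotlib 3.10.9 were used.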

Additional observations from a re-analysis of the deposited data

How the results depend on the processing

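Of 72 alternative values for 21 results, 57 stayed within the interval of the value given or within 1.5 times its count, 15 moved and 0 turned a direction. None of these settings used the 3′ UTR length. By distinct positions Camk2a had 186 and Camk2b 140 in place of 336 and 223 reads, and the Camk2a to Camk2g ratio per kb of window, 10.9, became 6.73. Counting reads with the same 3′ end and neighbouring crosslinks as 1 left 284 reads in Camk2a, 203 in Camk2b and 27 in Camk2g. The ratios per kb of mRNA were not recalculated by distinct positions or with such reads counted as 1. The Camk2a to Camk2b interval on that scale, 1.03 to 1.45, therefore rests on all reads. The Camk2a to Camk2b ratio, 2.28, became 1.22 per kb of the longest annotated mRNA and 1.64 for the last 10% of the window per kb of its crosslink span, both scales added once the values were known, like the counts within the fourth block. Joining within 50 nt left 5 clusters in Camk2a for 9 and raised the share of the highest cluster to 37.5% in Camk2a and 35.4% in Camk2b, by construction. Clusters of at least 5 reads numbered 7 in Camk2b and 3 in Camk2g. For Camk2g, a threshold of 5 reads gave 3 deep clusters and one of 20 reads gave 0, against 1. Within the fourth block the last 10% of the window held 100% of the reads of all 3 genes. The shift to 1.22 per kb of mRNA follows from the lengths used, by construction. Apart from that, the wider joining and the thresholds, the cause of these shifts was not tested. Widening the windows by 5 kb changed 0 counts in either library. No paired analysis was possible because there was a single library for each antibody. The control's 569 reads limit every comparison with it.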

Other observations

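Read length, which entered no comparison above, had a median of 26 nt in Camk2a, 29 nt in Camk2b and 27 nt in Camk2g, against 28 nt in the library. Lengths under 20 nt accounted for 13.7% of the Camk2a reads, 8.97% of those of Camk2b, 6.90% of those of Camk2g and 9.86% of the library. Among deep clusters the median length ranged from 23 to 31 nt in Camk2a and from 25 to 37 nt in Camk2b. The longest of these medians belonged to the 17-read cluster of Camk2b on chromosome 11 from 5871261 to 5871320.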
